A study of Mus musculus with 8 samples.

Results

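The genes described here encode the enzymes that build cholesterol and fatty acids, with proteins that set their level or carry sterols. Of 29 listed gene symbols, 28 were present among the 23304 symbols of the count tables: 15 enzymes of sterol synthesis, 5 regulators and transport proteins, and 8 enzymes of fatty acid synthesis, elongation and desaturation. The genes were chosen by symbol for their role in these pathways, and all 28 passed the filter on low counts that left 12807 genes for testing. RNA was sequenced from NIH3T3 cells, an immortalised mouse fibroblast line of Swiss albino origin, grown with 10% donor bovine serum. There were 8 libraries in 4 labelled groups of 2: unedited cells (WT) at 0 h with no agent, WT cells exposed for 2 h to interferon-β (IFN-β, mouse, recombinant, 100 units/ml), and the same conditions for cells with a CRISPR knockout (KO) of Zmynd11, a gene for a chromatin reader protein. Neither the number of edited clones nor the source of the 2 libraries of a group is stated, so the spread behind each p-value is that between these libraries and may be technical.

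Mammalian cells make cholesterol from acetyl-CoA through mevalonate, isoprenoids, squalene and lanosterol. They make fatty acids from the same acetyl-CoA through malonyl-CoA, and then elongate and desaturate them. Sterol regulatory element-binding proteins, encoded by Srebf1 and Srebf2, are membrane-bound transcription factors. Scap escorts them to the Golgi for cleavage when sterols are scarce, and Insig1 retains them in the endoplasmic reticulum when sterols are plentiful. Srebf2 is known mainly for sterol genes and Srebf1 for fatty acid genes, and both act on promoters together with the CCAAT-binding factor NF-Y and with Sp1.

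Levels are given in CPM, read counts scaled to a common library total after TMM normalisation. Each library held 13671013 to 21299120 gene reads, and 1 read was worth 0.0460 to 0.0700 CPM. Zmynd11 goes against some of the labels. It stood at 123 and 120.4 CPM in WT 0 h, 137 and 131 in KO 0 h, 3.18 and 3.61 in WT 2 h and 3.31 and 4.69 in KO 2 h, so it was high under both 0 h labels and low under both 2 h labels, whatever the genotype label. Ifit1, an interferon-induced antiviral gene, stood at 1.22 and 1.38 CPM in WT 0 h, 196 and 229 in KO 0 h, 1.73 and 3.95 in WT 2 h and 396 and 380.1 in KO 2 h, so it separated the libraries by genotype label. Isg15 and Mx2, also interferon-induced, separated the libraries in the same way. Mean Isg15 was 4.80 CPM in WT 0 h, 67.5 in KO 0 h, 3.56 in WT 2 h and 72.5 in KO 2 h. Mean Mx2 was 0.0977, 35.9, 0.303 and 51.7 CPM in the same order. The pattern of Zmynd11 and that of these interferon-induced genes are those that would be seen if the labels WT 2 h and KO 0 h had been exchanged. With that exchange the comparisons of 2 h with 0 h labels below would be knockout against unedited cells, and those of KO with WT labels would be IFN-β against none. Whether the labels were exchanged was not settled here, so groups are called by their labels, and each direction is one between the libraries labelled so. The library labelled KO 0 h replicate 2 had reads for 17498 genes against 14847 to 15945 in the others. Of 8 fibroblast markers, the summed level was 26409 to 29767 CPM under the 0 h labels and 7109 to 7599 CPM under the 2 h labels. Col1a1, Col1a2 and Vim made up nearly all of it, with means of 10526, 11763 and 6802 CPM in WT 0 h and 928, 1992 and 4068 in WT 2 h. Of 7 tested markers 6 fell in WT 2 h and 5 in KO 2 h, against 31.1% and 31.2% of all genes. Thy1 rose, by 0.27 (SE 0.08) in WT and 0.37 (SE 0.08) in KO on the log2 scale. The part of these markers in the results below was not tested. Sums were at most 0.278 CPM for 3 hepatocyte markers, 5.15 CPM for 4 epithelial markers and 3.88 CPM for 4 endothelial markers.

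Promoter sequence is shown first, because a short element stood before nearly all of the sterol genes with a window and before few of the fatty acid genes. RefSeq promoter windows of the mouse assembly GRCm38.p6 were matched by symbol to 21 of the 28 genes, and the 250 bases before each start were searched on both strands. The letters CCAAT, the element bound by NF-Y, were found before 11 of 12 sterol enzyme genes, 3 of 4 regulators and 1 of 5 fatty acid enzyme genes. Windows covered 12 of the 15 sterol enzyme genes, 4 of the 5 regulators and 5 of the 8 fatty acid enzyme genes. Whether each window, that of Acaca included, marks the start used in these cells was not tested. Among all tested genes with a window, 41.0% held CCAAT, and among all 32851 windows 33.8% did. A match is a description of the letters and not evidence of binding, and the submitters' notes name mm9 for the processed reads, so these positions serve only to locate the sequence. The last 100 bases before the start follow, 5′ to 3′ on the strand of the gene, for 8 sterol genes with 1 window each and CCAAT or its complement ATTGG in that stretch, which is in capitals. Tm7sf2, a sterol gene that also met this rule with 1 copy, is not printed.

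Mvk (chr5:114444169-114444268, plus strand): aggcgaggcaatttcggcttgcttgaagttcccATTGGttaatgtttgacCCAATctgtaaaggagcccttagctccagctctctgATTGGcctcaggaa
Mvd (chr8:122443423-122443522, minus strand): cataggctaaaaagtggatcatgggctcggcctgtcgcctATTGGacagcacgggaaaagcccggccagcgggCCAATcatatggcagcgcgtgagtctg
Idi1 (chr13:8885506-8885605, plus strand): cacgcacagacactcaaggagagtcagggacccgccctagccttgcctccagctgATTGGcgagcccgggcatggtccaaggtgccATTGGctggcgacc
Lss (chr10:76531505-76531604, plus strand): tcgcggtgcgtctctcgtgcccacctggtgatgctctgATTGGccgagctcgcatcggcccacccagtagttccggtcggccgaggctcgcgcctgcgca
Cyp51 (chr5:4104698-4104797, minus strand): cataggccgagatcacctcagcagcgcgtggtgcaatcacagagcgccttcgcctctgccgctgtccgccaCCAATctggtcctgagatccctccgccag
Nsdhl (chrX:72918421-72918520, plus strand): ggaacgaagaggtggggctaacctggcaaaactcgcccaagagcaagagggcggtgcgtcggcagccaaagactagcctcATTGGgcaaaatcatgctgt
Hsd17b7 (chr1:169969206-169969305, minus strand): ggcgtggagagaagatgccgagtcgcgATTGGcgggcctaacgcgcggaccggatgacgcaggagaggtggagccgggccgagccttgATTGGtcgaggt
Ebp (chrX:8193513-8193612, minus strand): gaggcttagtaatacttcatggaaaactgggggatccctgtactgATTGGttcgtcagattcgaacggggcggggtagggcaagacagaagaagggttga

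Of these, Mvk had 3 copies in the stretch, and Mvd, Idi1 and Hsd17b7 had 2 each. For contrast, the same stretch is given for 2 genes without the element that fell more than 4-fold, Acat2 of the sterol pathway and Elovl6 of the fatty acid pathway, and for Fasn, the fatty acid gene that held it.

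Acat2 (chr17:12960726-12960825, minus strand): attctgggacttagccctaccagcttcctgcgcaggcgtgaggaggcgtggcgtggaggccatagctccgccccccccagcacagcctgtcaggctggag
Elovl6 (chr3:129532286-129532385, plus strand): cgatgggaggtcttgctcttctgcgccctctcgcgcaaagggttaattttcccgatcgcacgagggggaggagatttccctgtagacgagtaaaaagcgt
Fasn (chr11:120824548-120824647, minus strand): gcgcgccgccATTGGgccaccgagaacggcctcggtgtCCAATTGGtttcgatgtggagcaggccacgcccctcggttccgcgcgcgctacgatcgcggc

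Fasn carried 3 copies, of which 2 overlap as a CCAAT joined to its own complement. GGGCGG, the core of the Sp1 element, was likewise found before 11 of 12 sterol genes and 2 of 5 fatty acid genes, but it is a commoner sequence, found before 63.2% of tested genes. The E-box CACGTG was found before 2 of 12 and 0 of 5, against 9.79%. A sterol element written as TCACNCCAC was in none of the 21 genes' windows and in 1.22% of tested genes. No CCAAT match overlaps a GGGCGG match in these genes, and absence from these 250 bases says nothing of sequence outside them.

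The comparison between the 2 h and 0 h labels asks, by label, how the cells responded to IFN-β, and with the exchange described above it would ask what the knockout changed. Zmynd11 had a log2 fold change of -5.16 (SE 0.13) in WT and -5.11 (SE 0.13) in KO in this comparison, and Ifit1 of 1.12 (SE 0.32) in WT and 0.87 (SE 0.11) in KO. Isg15 and Mx2, which followed the genotype label as Ifit1 did, did not share its rise between the time labels in WT. Isg15 was called lower there (-0.43, SE 0.17, edgeR adjusted p = 0.0326), and Mx2 was not called (1.56, SE 0.91, edgeR adjusted p = 0.144). All 15 sterol enzymes, 4 of the 5 regulators and all 8 fatty acid enzymes fell in the libraries labelled WT 2 h, which is 27 of 28 genes, and no gene rose. Among all 12807 genes tested, 61.2% were called in the same comparison, 31.1% lower and 30.1% higher. A fall of at least 2-fold was called for 19 of the 28 genes and for 8.2% of all genes. Under the KO labels 27 of 28 fell as well, where 61.1% of all genes were called and 31.2% were lower, and 17 of 28 fell at least 2-fold, against 8.42%. The WT and KO comparisons share no library. In bulk RNA, fewer cells that express a gene and less RNA per cell cannot be told apart. Calls are edgeR quasi-likelihood tests with Benjamini-Hochberg adjusted p below 0.05 over all genes, and the median log2 fold change of all genes was 0.01 under WT and -0.01 under KO.

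The 3 groups of genes differed in size of change. The median log2 fold change of the sterol enzymes was -1.88 under the WT labels and -1.90 under the KO labels. For the fatty acid enzymes it was -0.90 and -0.67, and for the regulators -1.47 and -1.49. Scaled by library size alone, the medians were -1.74 and -1.75 for sterol enzymes and -0.76 and -0.52 for fatty acid enzymes, a scaling that moved the median of all genes by 0.14 and 0.15. These medians are descriptions and were not tested against each other. The 28 genes together took 0.604 to 0.624% of gene reads in WT 0 h, 0.552 to 0.557% in KO 0 h, 0.306 to 0.321% in WT 2 h and 0.304 to 0.308% in KO 2 h.

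**Figure D1:**
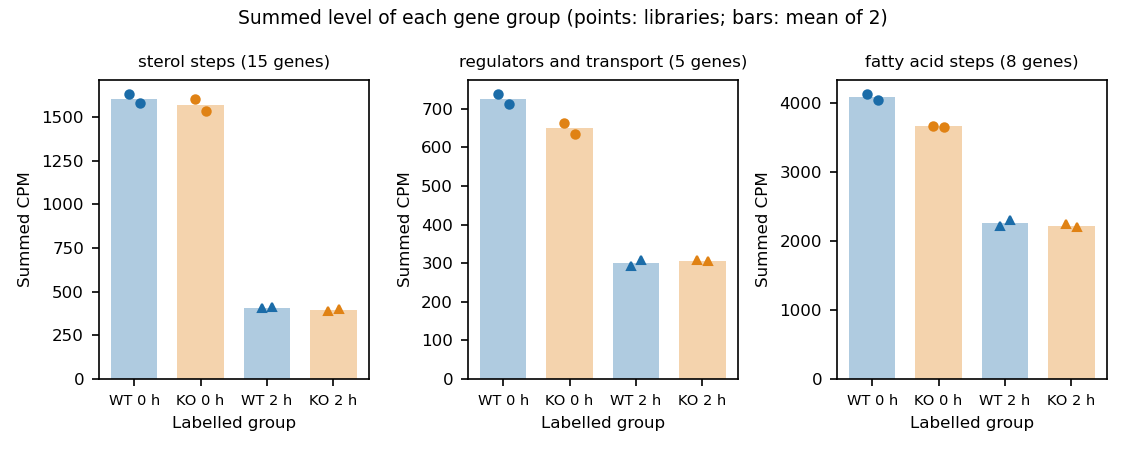
Summed CPM (y axis) of the 15 sterol enzymes, 5 regulators and transport proteins and 8 fatty acid enzymes in each labelled group (x axis); points are libraries and bars the mean of 2. Sterol sums sit at 1533 to 1629 CPM under the 0 h labels and at 390 to 410.0 CPM under the 2 h labels, and fatty acid sums at 3654 to 4125 and 2207 to 2305 CPM.

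Reads of the sterol enzymes summed to 0.392 to 0.436 of those of the fatty acid enzymes in the 4 libraries labelled 0 h and to 0.174 to 0.182 in the 4 labelled 2 h. The 2 sets of libraries do not overlap, and this ratio within a library does not depend on scaling. It gives most weight to abundant genes, and Scd2 alone made up 35.3 to 41.6% of the fatty acid reads of a library. Taken gene by gene, the 4 libraries labelled 2 h lay below all 4 labelled 0 h for 27 of the 28 genes, against 31.3% of all tested genes.

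**Figure D2:**
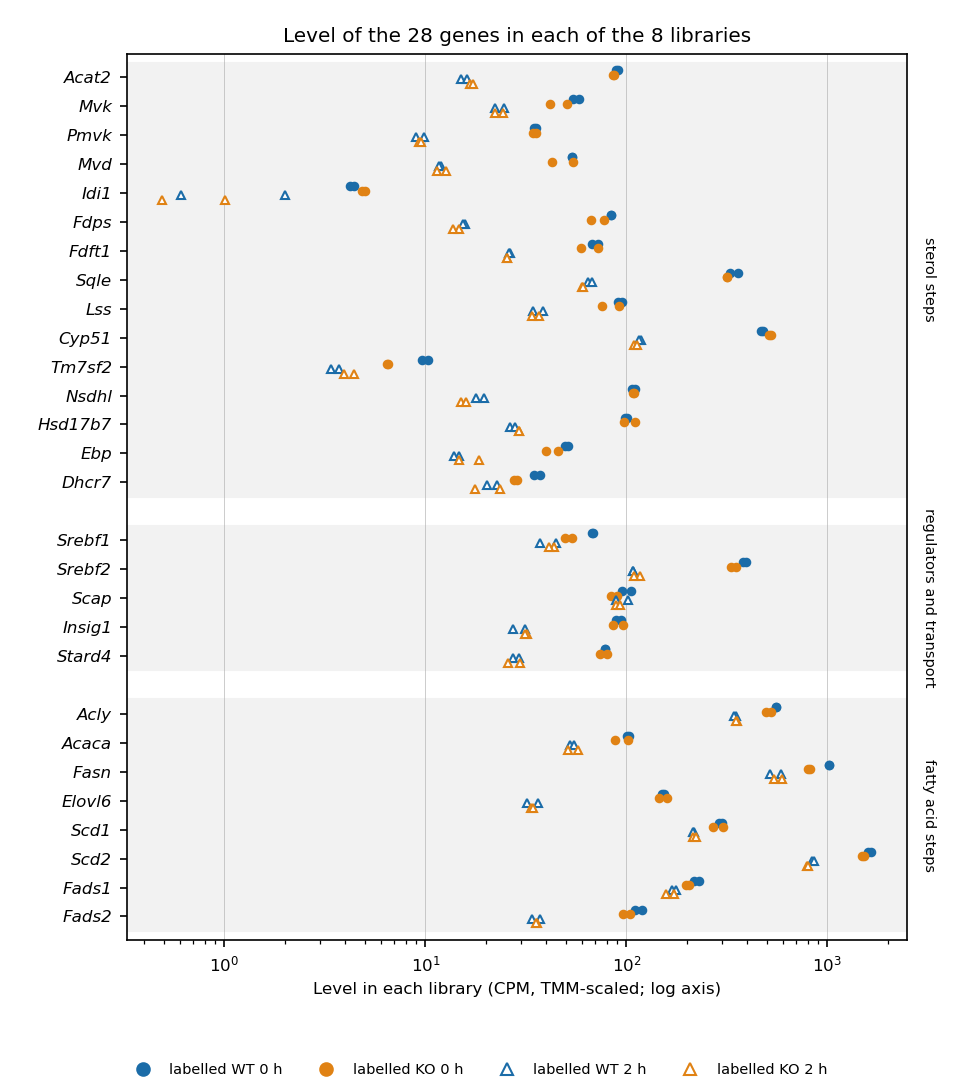
Level of each of the 28 genes in each of the 8 libraries (x axis, TMM-scaled CPM on a log axis), in pathway order within the 3 gene groups; filled circles are 0 h labels, open triangles 2 h labels, blue WT and orange KO. In every row but Scap the triangles lie to the left of the circles, and the distance is widest among sterol enzymes and Elovl6.

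The sterol pathway opens with Acat2, the cytosolic thiolase that joins acetyl-CoA units. It stood at 88.8 and 90.8 CPM in WT 0 h, 86.8 and 86.0 in KO 0 h, 15.1 and 16.2 in WT 2 h and 16.6 and 17.3 in KO 2 h. Its log2 fold change between 2 h and 0 h labels was -2.52 (SE 0.10) in WT and -2.35 (SE 0.10) in KO. The 2 h libraries held 18.5% of the mean level of the 0 h libraries.

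The kinases of mevalonate and its phosphate, Mvk and Pmvk, came next. Mvk stood at 58.1 and 54.3 CPM in WT 0 h, 50.4 and 41.4 in KO 0 h, 22.1 and 24.5 in WT 2 h and 22.2 and 24.3 in KO 2 h. Mvk changed by -1.27 (SE 0.11) in WT and -0.99 (SE 0.11) in KO. The fall was larger for Pmvk. Pmvk stood at 34.6 and 35.6 CPM in WT 0 h, 35.5 and 34.4 in KO 0 h, 9.82 and 9.0 in WT 2 h and 9.28 and 9.53 in KO 2 h. Pmvk changed by -1.90 (SE 0.12) in WT and -1.90 (SE 0.12) in KO. In both genes every library labelled 2 h lay below every library labelled 0 h. Mvd, which decarboxylates the product to isopentenyl diphosphate, changed by -2.18 (SE 0.12) in WT and -2.01 (SE 0.13) in KO, with 53.5 and 53.6 CPM in WT 0 h and 11.9 and 11.7 CPM in WT 2 h.

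Idi1, the isomerase of isopentenyl diphosphate, was the least abundant gene of the group per length of transcript and had the widest errors. It stood at 4.40 and 4.23 CPM in WT 0 h, 4.86 and 5.01 in KO 0 h, 2.00 and 0.611 in WT 2 h and 1.0 and 0.490 in KO 2 h, with the 4 libraries labelled 2 h all below the 4 labelled 0 h and spread from 0.490 to 2.00 CPM. Its change was -1.71 (SE 0.36) in WT and -2.63 (SE 0.40) in KO. A single library decided much of its size, which was -2.77 without WT 2 h replicate 1 and -1.08 without WT 2 h replicate 2 under the WT labels. Under the KO labels it was -3.29 without KO 2 h replicate 1 and -2.25 without KO 2 h replicate 2, and all 4 values stayed past the edgeR threshold. Fdps, which makes the farnesyl diphosphate used for sterols and for protein prenylation, changed by -2.42 (SE 0.11) in WT and -2.35 (SE 0.11) in KO, from 83.6 and 84.0 CPM in WT 0 h to 15.8 and 15.5 CPM in WT 2 h. In GENCODE M21, 1124 bases of Fdps exons overlap Gm43738 on the same strand, so its level is less certain.

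Fdft1, or squalene synthase, makes the committed step towards sterols, and it fell less than its neighbours Fdps and Sqle. Fdft1 stood at 72.1 and 67.2 CPM in WT 0 h, 72.0 and 59.7 in KO 0 h, 26.4 and 26.1 in WT 2 h and 25.4 and 25.4 in KO 2 h. Fdft1 changed by -1.41 (SE 0.10) in WT and -1.38 (SE 0.10) in KO. Exons of Fdft1 share 774 bases with Ctsb on the opposite strand, and whether the counts used strand is not stated. Sqle, the squalene epoxidase and a rate-limiting enzyme, stood at 357 and 329 CPM in WT 0 h, 316 and 317 in KO 0 h, 64.4 and 67.2 in WT 2 h and 60.1 and 61.1 in KO 2 h. The change of Sqle was -2.38 (SE 0.08) in WT and -2.38 (SE 0.08) in KO, so the KO and WT labels gave the same value to 2 decimals. Lss, which closes the rings to form lanosterol, changed by -1.35 (SE 0.10) in WT and -1.25 (SE 0.10) in KO, from 90.4 and 94.6 to 34.4 and 38.3 CPM under the WT labels. Fold changes therefore alternated along this stretch of the pathway, with Fdps and Sqle between -2.35 and -2.42 and Fdft1 and Lss between -1.25 and -1.41.

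The enzymes that turn lanosterol into cholesterol spanned the whole range of the group. Cyp51, the lanosterol demethylase, stood at 478 and 466 CPM in WT 0 h, 524 and 512 in KO 0 h, 118 and 115 in WT 2 h and 109 and 113 in KO 2 h. Cyp51 changed by -2.02 (SE 0.07) in WT and -2.22 (SE 0.07) in KO. Nsdhl, which removes methyl groups at the sterol ring, had the lowest log2 value of the 28 genes under both genotype labels. Acat2 lay within its error under WT, and under KO the error of Idi1 (-2.63, SE 0.40) reached it. Nsdhl stood at 109.7 and 107 CPM in WT 0 h, 109 and 108 in KO 0 h, 19.5 and 17.8 in WT 2 h and 15.0 and 15.9 in KO 2 h, which is -2.54 (SE 0.09) in WT and -2.82 (SE 0.10) in KO on the log2 scale. Hsd17b7, the partner of Nsdhl in the same reaction sequence, changed by -1.88 (SE 0.09) in WT and -1.83 (SE 0.09) in KO, and the sterol isomerase Ebp by -1.82 (SE 0.12) in WT and -1.39 (SE 0.12) in KO.

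Tm7sf2 and Dhcr7, both sterol reductases, were the least changed of the group under the KO labels. Dhcr7, which makes cholesterol in the final step, stood at 37.2 and 34.7 CPM in WT 0 h, 28.7 and 27.7 in KO 0 h, 20.2 and 22.8 in WT 2 h and 23.4 and 17.7 in KO 2 h. Dhcr7 changed by -0.74 (SE 0.12) in WT and -0.44 (SE 0.13) in KO. Tm7sf2 was the next to lowest in level per length of the sterol genes, and 532 bases of its exons overlap Vps51 on the same strand. Tm7sf2 stood at 9.58 and 10.3 CPM in WT 0 h, 6.51 and 6.42 in KO 0 h, 3.40 and 3.72 in WT 2 h and 3.95 and 4.41 in KO 2 h. Tm7sf2 changed by -1.48 (SE 0.19) in WT and -0.64 (SE 0.20) in KO. The KO 0 h libraries lay below both WT 0 h libraries for each of these 2 genes, but neither difference passed the test (Tm7sf2 -0.62, SE 0.18, edgeR adjusted p = 0.0546, Dhcr7 -0.35, SE 0.12, edgeR adjusted p = 0.106). Without the library labelled KO 2 h replicate 2, Dhcr7 under the KO labels was at -0.25 (edgeR adjusted p = 0.129, and 0.000666 to 0.129 over the libraries left out in turn), and with library size alone it was at -0.29 (edgeR adjusted p = 0.0553). Tm7sf2 under the KO labels lost its call without KO 2 h replicate 1 (-0.53, edgeR adjusted p = 0.0905, and 0.0132 to 0.0905 over the libraries left out) and with DESeq2 (-0.62, DESeq2 adjusted p = 0.0606).

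**Figure D3:**
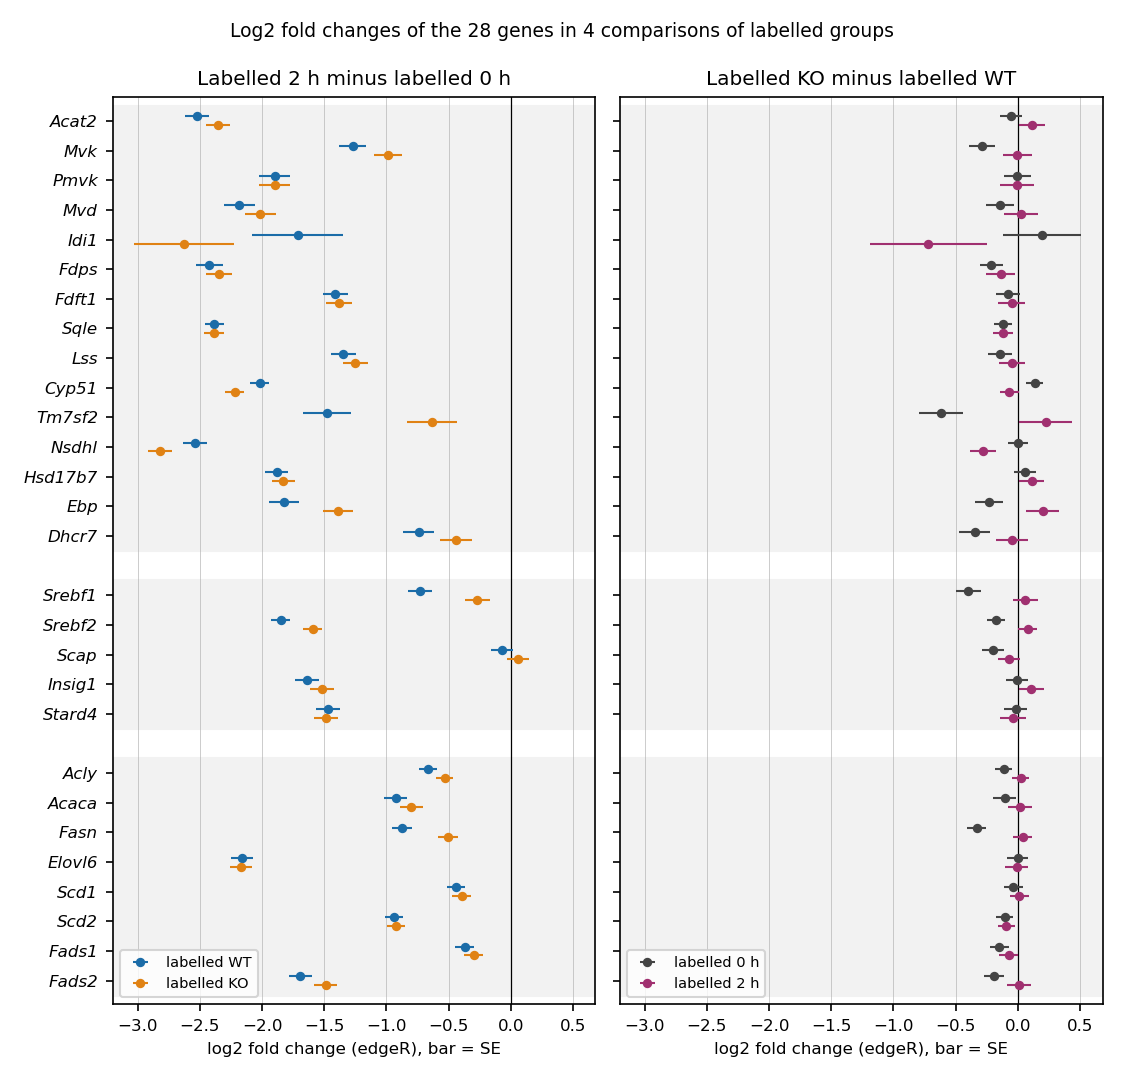
Log2 fold change (x axis, edgeR, bars are SE) of the 28 genes between the 2 h and 0 h labels (left, blue WT and orange KO) and between the KO and WT labels (right, grey 0 h and purple 2 h), on the same scale. On the left every gene but Scap lies below 0, with sterol enzymes from -0.44 to -2.82; on the right the values lie between -0.72 and 0.22.

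Among the regulators, the 2 genes for the transcription factors changed by different amounts. Srebf2 stood at 392 and 381 CPM in WT 0 h, 352 and 332 in KO 0 h, 107 and 107 in WT 2 h and 117 and 109.5 in KO 2 h. Its change was -1.85 (SE 0.08) in WT and -1.59 (SE 0.08) in KO, and the 2 h libraries held 30.3% of the mean of the 0 h libraries. The fall of Srebf1 was smaller. Srebf1 stood at 67.1 and 68.6 CPM in WT 0 h, 49.7 and 53.4 in KO 0 h, 37.3 and 44.6 in WT 2 h and 43.9 and 41.4 in KO 2 h. Srebf1 changed by -0.73 (SE 0.10) in WT and -0.27 (SE 0.10) in KO. The call of Srebf1 under the KO labels (edgeR adjusted p = 0.0226) was lost without KO 0 h replicate 2, KO 2 h replicate 1 or KO 2 h replicate 2 (-0.22, -0.29 and -0.21). It was also lost with library size alone (-0.12, edgeR adjusted p = 0.313), with the 4 KO libraries fitted alone (-0.25, edgeR adjusted p = 0.0606) and with DESeq2 (-0.26, DESeq2 adjusted p = 0.065). Its edgeR adjusted p ran from 0.029 to 0.144 over the libraries left out.

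Scap, the escort protein, was the gene of the 28 whose groups overlapped. It stood at 106 and 94.8 CPM in WT 0 h, 84.2 and 90.3 in KO 0 h, 88.3 and 102 in WT 2 h and 88.7 and 92.9 in KO 2 h, with changes of -0.07 (SE 0.09) in WT and 0.06 (SE 0.09) in KO (edgeR adjusted p = 0.487 and 0.597). Insig1, which retains Scap and is itself a known target of the pathway, fell by contrast. Insig1 stood at 93.9 and 88.8 CPM in WT 0 h, 95.8 and 85.9 in KO 0 h, 31.4 and 27.4 in WT 2 h and 32.1 and 31.2 in KO 2 h. Insig1 changed by -1.64 (SE 0.10) in WT and -1.52 (SE 0.10) in KO. Stard4, a carrier that moves cholesterol between membranes, changed by -1.47 (SE 0.10) in WT and -1.49 (SE 0.10) in KO, from 78.2 and 78.2 CPM in WT 0 h to 29.4 and 27.2 CPM in WT 2 h.

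In fatty acid synthesis, Acly supplies cytosolic acetyl-CoA from citrate, Acaca makes malonyl-CoA and Fasn, the fatty acid synthase, assembles palmitate. Acly stood at 552 and 553 CPM in WT 0 h, 525 and 495 in KO 0 h, 352 and 343 in WT 2 h and 355 and 351 in KO 2 h. Acly changed by -0.67 (SE 0.07) in WT and -0.53 (SE 0.07) in KO. Acaca fell somewhat further. Acaca changed by -0.93 (SE 0.09) in WT and -0.80 (SE 0.09) in KO, from 103 and 101 CPM in WT 0 h to 52.6 and 54.7 CPM in WT 2 h. The synthase was the most abundant of the 3 in CPM, but not per length of exon. Fasn stood at 1015 and 1024 CPM in WT 0 h, 798 and 822 in KO 0 h, 520.2 and 591 in WT 2 h and 596 and 545 in KO 2 h. Fasn changed by -0.88 (SE 0.08) in WT and -0.51 (SE 0.08) in KO. Each of the 3 was lower in all 4 libraries labelled 2 h than in any labelled 0 h, and none fell 2-fold.

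Elovl6, which lengthens palmitate to stearate, was the exception among fatty acid enzymes. It stood at 154 and 151 CPM in WT 0 h, 146 and 159 in KO 0 h, 36.3 and 32.0 in WT 2 h and 33.6 and 34.2 in KO 2 h. Elovl6 changed by -2.16 (SE 0.09) in WT and -2.17 (SE 0.09) in KO. Of the 28 genes, those with falls of this size under both labels were otherwise sterol enzymes. The KO and WT labels differed by -0.01 in this change (SE 0.12). Fads2, a desaturase that acts on linoleic acid, also fell more than 2-fold, from 119 and 110.2 CPM in WT 0 h to 34.0 and 37.1 in WT 2 h and from 96.4 and 105 in KO 0 h to 35.9 and 35.7 in KO 2 h. Fads2 changed by -1.69 (SE 0.09) in WT and -1.49 (SE 0.09) in KO.

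The other desaturases changed less. Fads1, which acts later in the same series, stood at 229 and 218 CPM in WT 0 h, 205 and 198 in KO 0 h, 169 and 176 in WT 2 h and 157 and 172 in KO 2 h. Fads1 changed by -0.37 (SE 0.08) in WT and -0.30 (SE 0.08) in KO, and its call under the KO labels was lost without KO 2 h replicate 1 (-0.21, edgeR adjusted p = 0.0714, and 0.002 to 0.0714 over the libraries left out) and with library size alone (-0.15, edgeR adjusted p = 0.0961). Scd1 and Scd2 introduce the double bond of oleic acid. Scd1 stood at 298 and 289 CPM in WT 0 h, 270.1 and 303 in KO 0 h, 218 and 214 in WT 2 h and 215 and 221 in KO 2 h. Scd1 changed by -0.44 (SE 0.08) in WT and -0.40 (SE 0.08) in KO. Scd2 fell further than Scd1. Scd2 stood at 1654 and 1589 CPM in WT 0 h, 1528 and 1484 in KO 0 h, 837 and 856 in WT 2 h and 790.4 and 798 in KO 2 h. Scd2 changed by -0.94 (SE 0.07) in WT and -0.92 (SE 0.07) in KO. Per kilobase of exon, Scd2 was the most abundant of the 28 genes, at 297 CPM per kilobase in WT 0 h and 155 in WT 2 h, against 60.0 and 44.2 for Scd1. Cyp51 was the second most abundant by this measure in WT 0 h (107) and the sixth in WT 2 h (26.4). Exon lengths come from GENCODE M21 on GRCm38 and not from mm9, so these levels are approximate.

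Related genes were set against each other within a library, where scaling plays no part. Reads of Srebf2 per read of Srebf1 were 5.85 and 5.55 in WT 0 h, 7.09 and 6.21 in KO 0 h, 2.87 and 2.41 in WT 2 h and 2.66 and 2.65 in KO 2 h. Reads of Fads2 per read of Fads1, its neighbour on chromosome 19, were 0.520 and 0.506 in WT 0 h, 0.471 and 0.527 in KO 0 h, 0.201 and 0.210 in WT 2 h and 0.229 and 0.208 in KO 2 h. Reads of Scd2 per read of Scd1, also on chromosome 19, were 5.55 and 5.50 in WT 0 h, 5.66 and 4.90 in KO 0 h, 3.84 and 3.99 in WT 2 h and 3.68 and 3.61 in KO 2 h. In each pair the 4 libraries labelled 2 h lay below the 4 labelled 0 h.

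Reads of Insig1 per read of Insig2, its relative outside the list, were 2.86 and 2.76 in WT 0 h, 3.20 and 2.72 in KO 0 h, 1.10 and 0.952 in WT 2 h and 1.08 and 1.04 in KO 2 h. Insig2 itself was at 32.8 and 32.2 CPM in WT 0 h and 28.5 and 28.8 in WT 2 h (log2 fold change -0.18, SE 0.10, edgeR adjusted p = 0.129). Reads of Acaca per read of Acacb, the mitochondrial form known for restraining fatty acid oxidation, were 14.9 and 15.6 in WT 0 h, 15.9 and 10.6 in KO 0 h, 1.99 and 2.05 in WT 2 h and 1.70 and 1.75 in KO 2 h. Acacb rose while Acaca fell, by 1.99 (SE 0.14) in WT and 2.12 (SE 0.15) in KO. Between 2 h and 0 h labels the mean log2 ratio moved by -2.91 for Acaca and Acacb, -1.47 for Insig1 and Insig2, -1.26 for Fads2 and Fads1, -1.22 for Srebf2 and Srebf1 and -0.51 for Scd2 and Scd1. A two-sided exact permutation test over the 8 libraries gave p = 0.0286 for each of the 5 pairs, the smallest it can give with 4 against 4, and 0.0286 after Benjamini-Hochberg adjustment over the 5. The pairs were chosen after the single values were known, and the WT and KO libraries were pooled by time label. These p-values are therefore no separate support for a difference, and the ratios are a description.

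**Figure D4:**
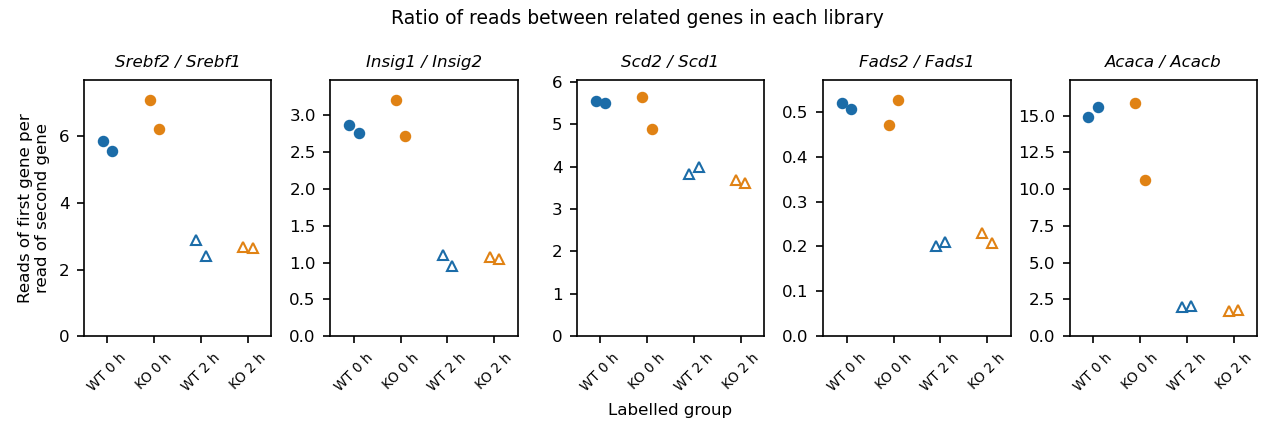
Reads of the first gene per read of the second (y axis, linear from 0) in each library of the 4 labelled groups (x axis) for 5 pairs of related genes; filled circles are 0 h labels and open triangles 2 h labels. The triangles lie below the circles in each panel, most for Acaca over Acacb, from 10.6 to 15.9 under 0 h labels to 1.70 to 2.05 under 2 h labels.

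Between the KO and WT labels at 0 h, few of the genes were called. By label this comparison asks what the knockout does in untreated cells, and with the exchange it would ask what IFN-β does in unedited cells. Zmynd11 was not called here (0.15, SE 0.09, edgeR adjusted p = 0.364), while Ifit1 was higher in KO 0 h by 7.35 (SE 0.19). Fasn and Srebf1 were lower in KO 0 h, and the other 26 genes did not pass the test. This is 2 of 28 genes, against 3.92% of all genes called, 1.27% lower and 2.65% higher. By unadjusted p below 0.05 (edgeR) there were 10 of the 28, against 2615 of all 12807 genes. The log2 fold change was below 0 for 24 of the 28, against 6284 of the 12807. Fasn had a log2 fold change of -0.33 (SE 0.08, edgeR adjusted p = 0.0151) and Srebf1 of -0.40 (SE 0.10, edgeR adjusted p = 0.0218). In both genes the 2 libraries labelled KO 0 h lay below the 2 labelled WT 0 h. Both calls were lost without either WT 0 h library, with edgeR adjusted p of 0.121 and 0.138 for Fasn and 0.107 and 0.152 for Srebf1, while the fold changes stayed between -0.35 and -0.44. Over the libraries left out in turn, edgeR adjusted p ran from 0.0118 to 0.138 for Fasn and from 0.0132 to 0.152 for Srebf1. Over the same fits the log2 fold change ran from -0.36 to -0.33 for Fasn and from -0.46 to -0.38 for Srebf1. These ranges include the fit without KO 0 h replicate 2, the library that had reads for more genes.

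At 2 h, none of the 28 genes passed the test between the KO and WT labels (edgeR). By unadjusted p below 0.05 there was 1 such gene, against 665 of all 12807 genes, and DESeq2 called 0 of the 28. Among all genes, 1.6% were called in this comparison. Fasn was at 0.04 (SE 0.08) and Srebf1 at 0.06 (SE 0.10), and the gene with the smallest p was Nsdhl, at -0.28 (SE 0.11, edgeR adjusted p = 0.52). The log2 fold changes of the other sterol enzymes lay between -0.72 for Idi1 (SE 0.47) and 0.22 for Tm7sf2 (SE 0.21).

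The interaction, the difference between the KO and WT labels in their change from 0 h to 2 h, was called for none of the 28 genes (edgeR), and for 0.133% of all genes. By unadjusted p below 0.05 there were 6 such genes, against 1637 of all 12807 genes, and DESeq2 called 0 of the 28. Fasn (interaction 0.37, SE 0.11, edgeR adjusted p = 0.2) and Srebf1 (0.46, SE 0.14, edgeR adjusted p = 0.217) had the smallest adjusted p. A difference between the genotype labels in the response of these genes was not shown, and its size for Sqle, for example, was -0.00185 with an SE of 0.11.

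Other genes of lipid metabolism, from 4 lists, were less uniform. Beside their counts, 31.1% of all genes were lower and 30.1% higher under the WT labels. Under the KO labels 31.2% were lower, and 3838 of 12807 were higher. Of 14 tested genes of sterol synthesis and uptake outside the 28, 10 were lower and 1 was higher in WT 2 h than in WT 0 h (median log2 fold change -0.90), and 9 and 0 under the KO labels (median -0.85). Tmem97, a sterol-responsive membrane protein, changed by -2.16 (SE 0.13) in WT and -2.0 (SE 0.13) in KO. Sc4mol, the sterol methyl oxidase that works with Nsdhl, changed by -1.67 (SE 0.08) in WT and -1.58 (SE 0.08) in KO, and 0610007P14Rik by -1.81 (SE 0.12) in WT and -1.26 (SE 0.12) in KO. Of 23 tested genes of fatty acid supply and activation, 13 were lower and 4 higher under the WT labels and 13 and 6 under the KO labels, with Acsl3, a long-chain acyl-CoA synthetase, at -1.59 (SE 0.08) in WT and -1.72 (SE 0.08) in KO. Acss2, which makes acetyl-CoA from acetate, changed by -0.98 (SE 0.16) in WT and -0.87 (SE 0.17) in KO, and Tecr, the last enzyme of the elongation cycle, by -0.87 (SE 0.09) in WT and -0.61 (SE 0.09) in KO. Acsl4, another acyl-CoA synthetase, was the only gene of these 4 lists called between KO and WT at 0 h, against 3.92% of all genes. It was higher in KO 0 h (0.32, SE 0.09), close to the threshold (edgeR adjusted p = 0.0479). At 2 h, 1 gene of these 4 lists was called between KO and WT, against 1.6% of all genes. It belonged to the list of sterol efflux, esterification and oxysterols and was higher in KO 2 h (edgeR adjusted p = 0.00892).

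Of 14 tested genes of sterol efflux, esterification and oxysterols, 7 were lower and 4 higher in WT 2 h. Among all genes 31.1% were lower and 30.1% higher there. The counts for the list were the same under the KO labels. Npc1, which exports cholesterol from lysosomes, rose from 38.3 and 43.7 CPM in WT 0 h to 136 and 146 in WT 2 h and from 39.6 and 39.8 in KO 0 h to 148 and 130.1 in KO 2 h. Abca1, a cholesterol exporter induced by oxysterols, changed by -2.12 (SE 0.26) in WT and -2.12 (SE 0.25) in KO, Abcg4 by -1.80 (SE 0.48) in WT and -1.38 (SE 0.48) in KO, and Scarb1, a receptor for high-density lipoprotein, by -1.20 (SE 0.09) in WT and -0.84 (SE 0.09) in KO. Ch25h, the cholesterol hydroxylase known as interferon-inducible in macrophages, had 0 to 3 reads in each library and was not tested. Of 18 tested genes of fatty acid oxidation, 6 were lower and 5 higher under either genotype label (medians -0.11 and -0.15), near the shares of all genes. Acaa2, a mitochondrial thiolase, changed by 0.91 (SE 0.10) in WT and 0.94 (SE 0.10) in KO. Hadh, a dehydrogenase of the same spiral, changed by -0.74 (SE 0.08) in WT and -0.56 (SE 0.08) in KO. In that list Hadhb, a subunit of the mitochondrial trifunctional protein, changed by -0.59 (SE 0.19) and the acylcarnitine carrier Slc25a20 by 0.54 (SE 0.14) under the WT labels.

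Markers of other lipid-handling cells were read beside these values. Of 6 adipocyte markers, 5 were too low to test, with Adipoq at 0 to 5 reads and Fabp4 at 0 to 11 reads a library, and Lpl made up nearly all of the summed level, which was 72.1 to 86.6 CPM under 0 h labels and 119 to 134 CPM under 2 h labels. Of 5 macrophage markers, summed at 33.6 to 34.3 CPM in WT 0 h, 43.2 to 67.1 in KO 0 h, 51.7 to 52.1 in WT 2 h and 39.2 to 70.7 in KO 2 h, 1 was called higher in WT 2 h and 1 lower in KO 2 h than at 0 h. Their part in the results was not tested.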

How the data were processed

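For each library the authors deposited raw read counts for 23304 gene symbols, followed by 4 summary lines. The submitters' processing notes name STAR 2.5.2b, HTSeq, bcl2fastq 2.15 and mm9. What each tool did, the annotation and any strand setting were not given in the sources used here. The summary lines (unmapped, mapped to several places, in no gene or in several) took 36.9 to 43.2% of reads and were left out, so genes with near-identical copies can be undercounted. The limit that a count of 0 allows, 3 reads, was 0.138 to 0.210 CPM per library and covers counting error only.

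The test was edgeR's (version 4.0.16, R 4.3.3). Low genes were removed with filterByExpr (minimum count 10, minimum total 15), which left 12807. Libraries were scaled by TMM, and 1 quasi-likelihood model with a coefficient per labelled group was fitted to all 8 libraries with robust dispersions and 4 residual degrees of freedom (biological coefficient of variation 6.74%). The 5 comparisons were 2 h against 0 h in each genotype label, KO against WT at each time label, and the interaction. Replicates differed by more than counting noise, with a chi-square of 3.04 to 9.64 per gene. The fit was also run on simulated counts in which few genes changed. Those counts differ from the data, where 61.2% of genes were called in WT 2 h against WT 0 h, so nothing is concluded from them. The alternatives were RLE scaling, library size alone, no filter, 1 CPM in 2 libraries, DESeq2 1.42.0, a fit with the compared libraries only, a replicate block, and each library omitted in turn. A lone remaining library of a group was assumed to vary like the other groups.

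The genes and lists were chosen with earlier results of these data known, so no list was tested as a set. All listed genes in the tables are named, and of 4 further lists at most 4 genes each: those called in WT 2 h against WT 0 h with groups that do not overlap, at least 1 CPM in a group and the largest changes, plus Insig2, Ch25h and genes called in KO 0 h against WT 0 h. Some genes that could be listed are not reported here. Promoter sequences are RefSeq windows of GRCm38.p6, and exon lengths are from GENCODE M21. Ratios within a library were tested in Python 3.11.15 with SciPy 1.17.1.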

Additional observations from a re-analysis of the deposited data

How the results depend on the processing

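Under every alternative run, 27 of the 28 genes were called in WT 2 h against WT 0 h. In KO 2 h against KO 0 h the alternatives and the libraries left out in turn gave 24 to 27. Over 840 refitted values of the 28 genes in these 2 comparisons none changed sign with a call, and 12 lost it, all under the KO labels and all for Srebf1, Tm7sf2, Dhcr7 or Fads1. With library size alone the median was -1.74 (sterol, WT), -1.75 (sterol, KO), -0.76 (fatty acid, WT) and -0.52 (fatty acid, KO). With a library left out, the fatty acid median ran from -0.92 to -0.80 under WT and from -0.74 to -0.58 under KO. For KO 0 h against WT 0 h, leaving out a library gave 174 to 1073 genes and 0 to 5 of the 28, a sterol median of -0.26 to -0.0441 and a fatty acid median of -0.19 to -0.11. For KO 2 h against WT 2 h the fatty acid median ran from -0.0441 to 0.00983. For the interaction the range was 6 to 91 genes, 0.00773 to 0.21 (sterol) and 0.0759 to 0.16 (fatty acid). Without a filter 809 genes were called in KO 0 h against WT 0 h, against 502, and 113 in the interaction, against 17, for which DESeq2 called 32. The cause was not tested. The labels do not say that replicate numbers mark a shared batch, and deviations of same-numbered libraries correlated at -0.0731 to 0.0130. With the replicate block, 27, 27, 2, 0 and 0 of the 28 genes were called in the 5 comparisons, and 322 genes in KO 0 h against WT 0 h. With 2 libraries a group, the depth limits Idi1 most, at 7 to 90 reads a library.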
